A study of Mus musculus with 6 samples.

Results

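The 58 listed genes of mouse chromosome 1 make up a set that was put together as genes lowered together in E0771-HML2 cells, a lung-metastatic derivative of a mouse mammary carcinoma line. They were listed by name and chosen by the shift of the HML2 signals against the parental mean on these same arrays, so the differences between HML2 and parental cells describe the set and test nothing about it. Each gene was read from the probe set with a single gene symbol that had the highest mean log2(signal + 50) over the 6 arrays, provided that its mean signal was at least 100. Under this rule 53 of the 58 genes were measured, among 9361 genes of the whole array and 520 of chromosome 1. Bard1, Ncstn and Mreg stayed under the minimum signal, and Tpr and Prdx6 had no probe set with a single symbol. The name of the set fitted the data in part: 41 of the 53 genes had a lower mean in HML2 cells and 12 had a higher one.

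E0771 is a mammary tumour cell line of C57BL/6 mice. The parental group was the line as cultured, without selection. HML2 is a second-generation population: cells were placed in the mammary fat pad of C57BL/6 mice, cells that had spread to the lung were recovered, and the round was repeated. Both groups carried no further treatment or engineered allele in the labels, and RNA came from cultured cells of both, not from tumours. Each group had 3 arrays that the labels call biological replicates. The labels do not say whether the HML2 replicates go back to different mice, so the p-values given here measure the spread between these cultures.

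Genes of one chromosome share no common pathway, and the listed genes serve basic work in nearly every cell: ribosome assembly, splicing, protein folding and breakdown, vesicle traffic, nuclear import and the actin skeleton. Many of them code for 1 subunit of a complex whose other subunits are coded on other chromosomes, such as the proteasome, the coatomer of Golgi vesicles and the COP9 signalosome. Others act alone as enzymes, receptors or transporters, among them the cytosolic isocitrate dehydrogenase Idh1, the BMP receptor Bmpr2 and the phosphate exporter Xpr1.

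Most of the listed genes read slightly lower in HML2 cells, and a minority read much lower. The median difference, HML2 minus parental on the log2(signal + 50) scale, was -0.24, with quartiles of -0.65 and -0.06. The values ran from -2.12 for Xpr1 to 1.39 for Xrcc5. A fall of more than 1 on this scale was seen for 7 genes, whereas 24 of the 53 lay within 0.25 of 0. All measured genes of the array had a median of -0.02, and 51.7% of them were below 0. In the fit over all 9361 genes (limma, Benjamini-Hochberg adjusted p below 0.05), 16 of the 53 genes were called lower and 1 was called higher, where 14.9% of all genes were called lower and 12.3% higher. With the replicate number as a block 21 were called lower, and with array weights 24. The HML2 arrays all lay below the parental arrays for 24 listed genes (23.8% of all genes) and all above them for 2 (20.6% of all genes), and the groups overlapped for the other 27. Of the 17 called genes, 13 were called in each of the 6 fits that left out 1 array. Since the contrast chose the list, nothing is read from these counts. In RNA from whole cultures, fewer cells of a type and less RNA per cell cannot be told apart.

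The lean towards lower signals was present on each HML2 array. Against the parental mean, the median over the listed genes was -0.30, -0.19 and -0.23 on HML2 replicates 1, 2 and 3. In the same order 41, 40 and 41 of the 53 genes were below 0, against 51.8%, 49.3% and 51.5% of all measured genes. Each parental array against the mean of the other parental arrays gave medians of -0.02, 0.01 and 0.01, with 31, 26 and 25 genes below 0. Gene by gene, 33 of the 53 lay below the parental mean on all 3 HML2 arrays, 8 on 2 of them, 7 on 1 and 5 on none. Of the 467 other chromosome 1 genes, 286 lay below it on all 3, 67 on 2, 51 on 1 and 63 on none. Without HML2 replicate 1 the median group difference of the listed genes was -0.18.

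**Figure D1:**
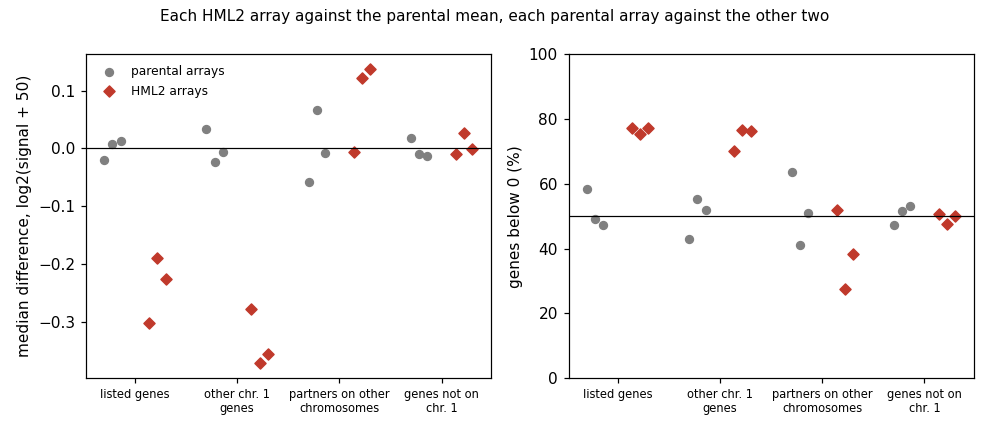
Left, the median over each gene set of single arrays on the log2(signal + 50) scale, with HML2 arrays (red diamonds) set against the parental mean and each parental array (grey circles) against the mean of the other parental arrays. Right, the percent of genes below 0 in the same comparisons. For the listed genes the HML2 arrays lie at -0.30, -0.19 and -0.23, and for the 467 other chromosome 1 genes at -0.28, -0.37 and -0.36.

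The other measured genes of chromosome 1 were shifted as well. Their median over 467 genes was -0.33, 364 of them (77.9%) were below 0, and 165 (35.3%) were called lower against 20 (4.28%) called higher. The 8841 genes that are not on chromosome 1 had a median of -0.00, with 50.2% below 0, 13.7% called lower and 12.8% called higher. The share of listed genes below 0, 77.4%, was therefore close to that of their chromosome. Among 20 chromosomes, chromosome 1 had the second-lowest median, -0.32 over 520 genes. Chromosome 16 had the lowest, -0.42 over 302 genes, and chromosomes 12 and 3 had the highest, 0.15 and 0.20. The set was put together as chromosome 1 genes lowered on these same arrays. The shift and rank of the chromosome are therefore a description and not a test.

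**Figure D2:**
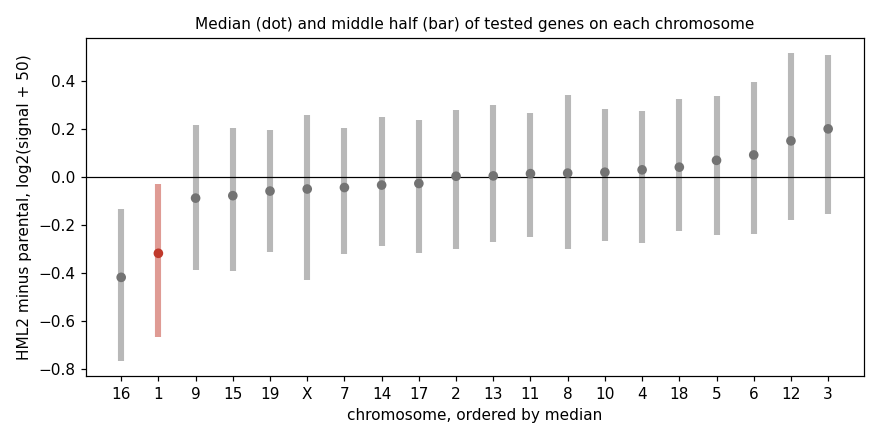
Median (dot) and interquartile range (bar) of the difference, HML2 minus parental on the log2(signal + 50) scale, for measured genes of each chromosome, in order of the median. Chromosome 1 (red) lies at -0.32 and chromosome 16 at -0.42, while the other chromosomes have medians between -0.09 and 0.20.

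Xpr1 and Xrcc5 marked the ends of the range, and Kdm5b and Bmpr2 were among the 7 genes with a difference under -1. Xpr1, the exporter of inorganic phosphate, read 3663, 2448 and 3038 in parental cells and 765, 599 and 605 in HML2 cells, a difference of -2.12 ± 0.18 (here and below, the standard error of the fit, n = 3 arrays in each group). Kdm5b, a demethylase of lysine 4 on histone H3, read 1581, 1121 and 1239 in parental cells and 542, 419.8 and 444 in HML2 cells, a difference of -1.39 ± 0.17. Bmpr2, the type II receptor for bone morphogenetic proteins, read 4105, 4307 and 4394 in parental cells and 2010.4, 1769 and 1614 in HML2 cells, a difference of -1.23 ± 0.12. For all 3 of these genes the HML2 arrays were well below the lowest parental array. Xrcc5, which codes for the Ku80 subunit of the Ku heterodimer that binds broken DNA ends, went the other way with 120.1, 132 and 109 in parental cells and 428, 354 and 413 in HML2 cells. Its difference was 1.39 ± 0.16, the lowest HML2 array exceeded the highest parental array, and it was the only listed gene called higher.

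To show what the start regions of these genes look like, the 120 bases before each start are printed from RefSeq's GRCm38.p6 assembly, 5′ to 3′ on the gene's own strand, with matches to any of 6 searched motifs in capitals. Xpr1 lies on the minus strand (chr1:155417445-155417564), and Kdm5b (chr1:134560058-134560177), Bmpr2 (chr1:59764159-59764278) and Xrcc5 (chr1:72307301-72307420) lie on the plus strand.
Xpr1: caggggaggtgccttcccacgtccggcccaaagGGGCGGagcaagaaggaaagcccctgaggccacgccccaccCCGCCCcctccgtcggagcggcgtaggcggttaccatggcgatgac
Kdm5b: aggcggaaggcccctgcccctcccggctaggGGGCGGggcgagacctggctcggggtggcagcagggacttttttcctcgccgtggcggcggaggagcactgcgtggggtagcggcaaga
Bmpr2: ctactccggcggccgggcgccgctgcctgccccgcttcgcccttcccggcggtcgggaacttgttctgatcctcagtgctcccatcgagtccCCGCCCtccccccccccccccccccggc
Xrcc5: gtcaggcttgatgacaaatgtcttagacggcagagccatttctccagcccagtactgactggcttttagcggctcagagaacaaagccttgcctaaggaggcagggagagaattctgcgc
The capitals mark the GC box, GGGCGG or its reverse complement CCGCCC, which is the core of the site bound by Sp1-type factors. It was matched in the 3 stretches of the lowered genes and no searched motif was matched in that of Xrcc5.

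Over the 250 bases before the start, 53 of the 58 listed genes had an entry in the promoter table. Both strands were searched and a match counted whether or not it overlapped another motif. A GC box stood in 36 of the 53 (67.9%), against 67.1% of all measured genes and 35.4% of all genes in the table. By direction, it stood in 11 of the 14 genes called lower that had an entry (78.6%). Among the 12 listed genes above 0, it stood in 8 (66.7%), and this split was not tested. The CCAAT box (CCAAT) was present in 35.8% of listed and 40.9% of measured genes, the ETS core (CCGGAA) in 22.6% and 27.9%, and the NRF1 core (TGCGCA) in 17.0% and 14.6%. An E-box (CACGTG) was found in 11.3% of listed and 10.6% of measured genes, and a TATA box (TATAAA) in 3.77% and 7.59%. For genes called lower and genes above 0, the CCAAT box stood in 42.9% and 25%, and the ETS core in 7.14% and 33.3%. In the same order the NRF1 core stood in 7.14% and 25%, and the E-box and TATA box each in 0% and 8.33%. These splits, over 14 and 12 genes, were not tested. The median GC content was 61.6% in listed and 60.4% in measured genes. By these letters the start regions of the listed genes looked like those of other genes measured on the array. A match is a description of the sequence and not a bound site.

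Genes for ribosome assembly and translation were near the parental level. The 5 measured genes had a median difference of 0.01, with 2 below and 3 above 0 and none called. Ncl, the nucleolar protein nucleolin, read 22097, 29483 and 24421 in parental cells and 24982, 29004 and 28026 in HML2 cells. Nop58, a core protein of the box C/D particles that guide methylation of ribosomal RNA, read 8839, 12423 and 9459 in parental cells and 9490.2, 10798 and 10319 in HML2 cells. Ddx18, a helicase of the nucleolus, read 4231, 6014 and 4347 in parental cells and 4706, 5918 and 5429 in HML2 cells. The groups overlapped for all 3, and the differences were 0.12 ± 0.12, 0.01 ± 0.14 and 0.15 ± 0.16. Eef1b2, which recharges elongation factor 1 with GTP, read 18252, 17397 and 17219 in parental cells and 18108, 16192 and 16477 in HML2 cells, a difference of -0.06 ± 0.08. Bzw1, a regulator of start codon choice, read 7068, 8427 and 8324 in parental cells and 4831, 7492 and 7091 in HML2 cells. Its difference of -0.31 ± 0.17 leaned on HML2 replicate 1, the lowest of the 6 arrays, while HML2 replicates 2 and 3 lay within the parental range.

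Splicing, transcription and chromatin genes were divided. Of 10 measured genes, 8 were below 0 and 2 above, with a median of -0.17. A total of 3 were called lower, against 14.9% of all genes. Per2, a repressor of the circadian clock, had the largest decrease with 282, 378 and 367 in parental cells and 56.5, 72.3 and 88.1 in HML2 cells, a difference of -1.68 ± 0.19. All 3 HML2 arrays fell under the signal of 100 that was asked of the mean over all 6 arrays. Together with Xrcc5, Per2 was one of the listed genes nearest to that minimum: their means over 6 arrays were 207 and 259, and Ncstn at 91.1 was the nearest gene below it. Hnrnpu, a nuclear RNA-binding scaffold protein, read 12036, 14905 and 13696 in parental cells and 15001, 17674 and 18139.9 in HML2 cells, with each HML2 array above each parental array and a difference of 0.32 ± 0.11 that was not called. Cdc73, the parafibromin subunit of the PAF1 elongation complex, read 2088, 2266 and 2494 in parental cells and 2284, 2861 and 2787 in HML2 cells, a difference of 0.20 ± 0.13 with overlapping groups. Ctdsp1, a small phosphatase of the RNA polymerase II tail, was called lower with a difference of -0.76. The splicing factor Sf3b1 (-0.21), the splicing kinase Clk1 (-0.14), the nucleic acid-binding protein Tsn (-0.34), the cyclic AMP-responsive factor Creb1 (-0.11) and the repressor Lrrfip1 (-0.14) were not called. Without HML2 replicate 1, its lowest array, Tsn was at -0.11.

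**Figure D3:**
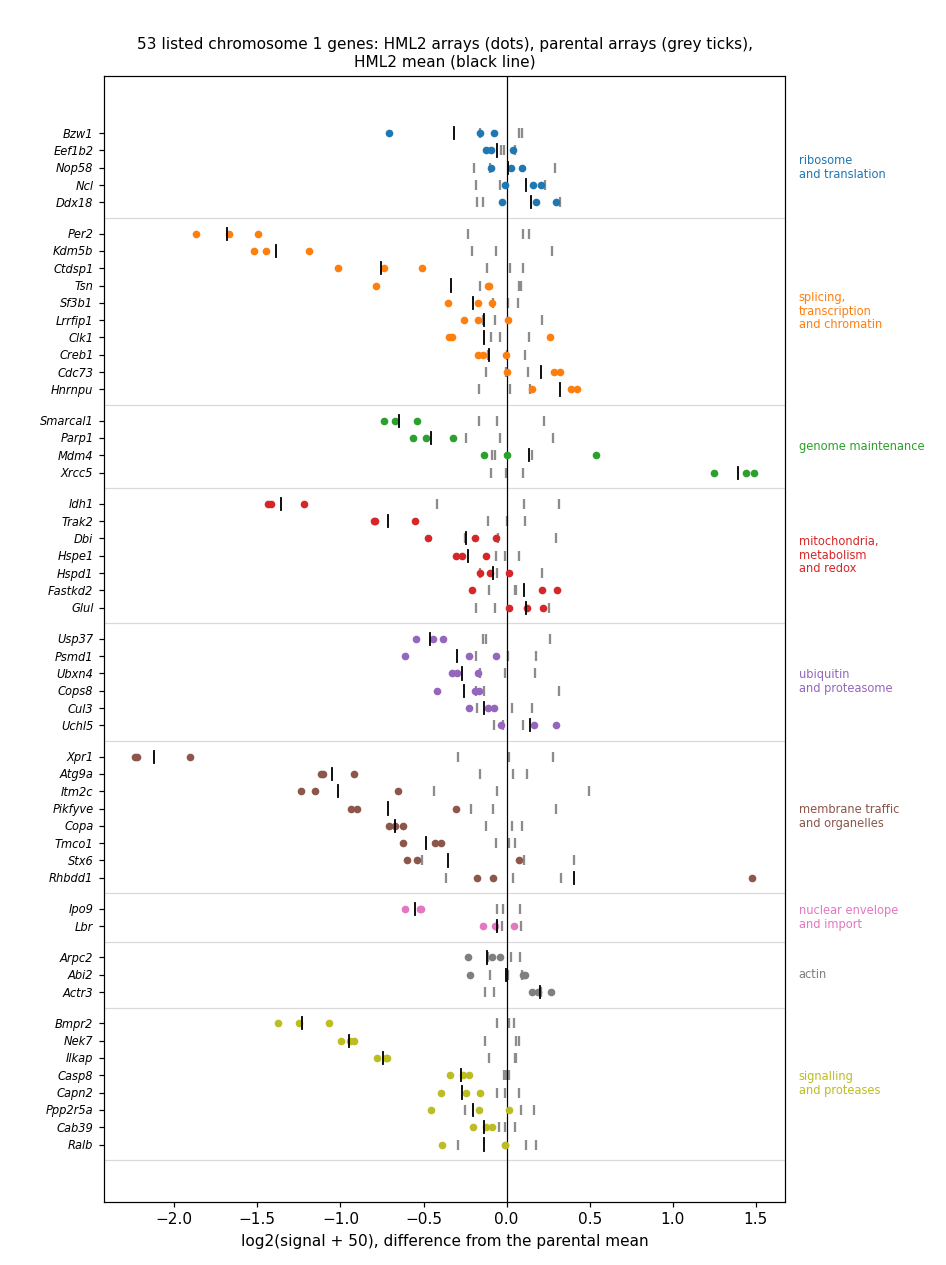
Each HML2 array (dot) and each parental array (grey tick) as its difference from the parental mean on the log2(signal + 50) scale, for the 53 measured genes in 9 role groups, with the HML2 mean as a black line. Most dots of the membrane traffic and signalling groups lie left of 0, those of ribosome and translation genes lie around 0, and Xrcc5 at 1.39 and HML2 replicate 1 of Rhbdd1 stand far to the right.

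Genome maintenance genes held the only increase called. Of 4 measured genes 2 were below 0 and 2 above, with 1 called in each direction. Over all genes 14.9% were called lower and 12.3% higher. Smarcal1, a helicase that anneals DNA strands at stalled replication forks, read 999.5, 751 and 816 in parental cells and 568, 489 and 515 in HML2 cells, a difference of -0.65 ± 0.15 that was called, though not in the fits without parental replicate 1 or 3 or without HML2 replicate 2 or 3. Parp1, the main poly(ADP-ribose) polymerase of the response to DNA breaks, read 2569, 3706 and 2967 in parental cells and 2158, 2426 and 2046 in HML2 cells, a difference of -0.46 ± 0.15 that was not called although the groups did not overlap. Mdm4, an inhibitor of p53, read 318, 324 and 386 in parental cells and 518, 305 and 343 in HML2 cells. For Mdm4 the groups overlapped, HML2 replicate 1 was the highest array, and the difference was 0.13 ± 0.20 with it and -0.07 without it. Bard1, the ring-finger partner of Brca1, was measured at signals of 16.9 to 81.0 and was not tested.

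Among mitochondrial and metabolic genes Idh1 had the largest difference. The 7 measured genes had a median of -0.23, with 5 below and 2 above 0. Of these genes 2 were called lower, against 14.9% of all genes. Idh1, the cytosolic enzyme that makes NADPH from isocitrate, read 7470.0, 4457 and 6428 in parental cells and 2205, 2537 and 2182 in HML2 cells. Trak2, an adaptor that couples mitochondria to motor proteins, read 1716, 1860.2 and 1584 in parental cells and 969.6, 1154 and 967 in HML2 cells. Both had non-overlapping groups and were called, with differences of -1.36 ± 0.19 and -0.71 ± 0.13. Glul, glutamine synthetase, read 592, 544 and 754 in parental cells and 685, 629.5 and 734 in HML2 cells, and its groups overlapped with a difference of 0.12 ± 0.16. Fastkd2, a mitochondrial RNA-binding protein, read 1393, 1559 and 1566 in parental cells and 1295, 1752 and 1865 in HML2 cells, a difference of 0.10 ± 0.16 with overlap. Dbi, which binds acyl-coenzyme A, had a difference of -0.24 and was not called.

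Hspd1 and Hspe1 code for the chaperonin of the mitochondrial matrix and its lid. They are transcribed in opposite directions from a shared start region, which is why that stretch is shown: the 215 bases between the starts, on the plus strand that Hspe1 is read from (GRCm38.p6, chr1:55087933-55088147, RefSeq), with GC box and ETS core matches in capitals.
Hspd1-Hspe1: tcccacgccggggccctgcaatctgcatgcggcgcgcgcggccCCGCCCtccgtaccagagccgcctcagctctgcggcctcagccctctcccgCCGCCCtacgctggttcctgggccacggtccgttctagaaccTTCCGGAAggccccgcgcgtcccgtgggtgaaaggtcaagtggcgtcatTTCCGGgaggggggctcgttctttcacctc
Hspd1 read 21286, 27577 and 22831 in parental cells and 22140.2, 24017 and 21214 in HML2 cells, a difference of -0.08 ± 0.11 with overlapping groups. Hspe1 had a difference of -0.23 ± 0.09, and its HML2 arrays all lay below its parental arrays, though it was not called. The difference between the values of these neighbours was not tested.

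None of the 6 genes of the ubiquitin and proteasome system was called. Their median was -0.26, with 5 below 0 and 1 above, and the groups overlapped for 4 of them. Psmd1, the largest scaffold subunit of the proteasome's regulatory particle, read 7021, 9007 and 8018 in parental cells and 5195, 7617 and 6814 in HML2 cells. Usp37, a deubiquitinase of the cell cycle, read 619, 611 and 823 in parental cells and 449, 507 and 485 in HML2 cells. Uchl5, a deubiquitinase that docks on the proteasome, read 4289, 4859 and 4469 in parental cells and 4431, 5081 and 5585 in HML2 cells. The groups overlapped for Psmd1 and Uchl5, with differences of -0.30 ± 0.16 and 0.14 ± 0.12, and did not overlap for Usp37, with a difference of -0.46 ± 0.16. The lowest of the 6 Psmd1 arrays was HML2 replicate 1. The other 3 were the ubiquitin ligase scaffold Cul3 (-0.14), the COP9 signalosome subunit Cops8 (-0.26) and the endoplasmic reticulum protein Ubxn4 (-0.27).

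Membrane traffic genes had the lowest median of the 9 role groups, -0.69 over 8 genes. The role groups were drawn up with results of these data known, and their order was not tested. Of the 8 genes 7 were below 0 and 6 were called lower, against 14.9% of all genes and 34.8% of measured chromosome 1 genes. Besides Xpr1, the most lowered was Atg9a, a lipid scramblase of autophagosome formation, which read 638, 599 and 517 in parental cells and 244, 284 and 241 in HML2 cells. Itm2c, a transmembrane protein that binds the amyloid precursor, read 7186, 3739.9 and 4892 in parental cells and 3218, 2258 and 2127 in HML2 cells. All HML2 arrays were below all parental arrays for both, and the differences were -1.05 ± 0.15 and -1.02 ± 0.24. Pikfyve, the kinase that makes phosphatidylinositol 3,5-bisphosphate (-0.72), Copa, the alpha subunit of coatomer (-0.67), and Tmco1, a calcium channel of the endoplasmic reticulum (-0.48), were the others called lower. The call of Pikfyve was lost in 5 of the 6 fits that left out 1 array, that of Itm2c without parental replicate 3 and without HML2 replicate 3, and that of Tmco1 without parental replicate 3. The vesicle fusion protein Stx6 (-0.36) was not called. Rhbdd1, a rhomboid protease, read 1033, 621 and 838 in parental cells and 2360.2, 714 and 768 in HML2 cells. Its difference of 0.41 ± 0.41 came from HML2 replicate 1 alone, and without that array the difference was -0.13. Ncstn, a subunit of gamma-secretase, had signals of 70.3 to 132 and Mreg, a protein of melanosome transport, of 3.02 to 51.3, and neither was tested.

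The nuclear envelope and actin groups were small. Ipo9, an importin that carries histones, read 2539, 2738 and 2478 in parental cells and 1789, 1785 and 1671 in HML2 cells, a called difference of -0.55 ± 0.11 without overlap. Lbr, a lamin-binding receptor of the inner nuclear membrane, read 9846, 8931 and 9092 in parental cells and 8839, 9574 and 8415 in HML2 cells, a difference of -0.06 ± 0.10 with overlap. Among the 3 actin genes none was called and the median was -0.00. Arpc2, a subunit of the Arp2/3 complex that nucleates branched actin, read 21744, 22568 and 19731 in parental cells and 20762, 20074 and 18131 in HML2 cells. Actr3, the Arp3 subunit of that complex, read 10580.0, 10169 and 12852 in parental cells and 13437, 12690.5 and 12394 in HML2 cells. Abi2, an adaptor of the WAVE complex that switches Arp2/3 on, read 1355, 1249 and 1435 in parental cells and 1458, 1148 and 1444 in HML2 cells. The groups overlapped in all 3 cases, and the differences were -0.12 ± 0.09, 0.20 ± 0.11 and -0.00 ± 0.14.

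All 8 signalling and protease genes were below 0, with a median of -0.27, and 3 were called lower, against 14.9% of all genes. After Bmpr2 the most lowered was Nek7, a kinase of mitosis and of NLRP3 inflammasome assembly, which read 6014, 5271 and 6070.1 in parental cells and 2985, 2869 and 3037 in HML2 cells, a called difference of -0.95 ± 0.11. Ilkap, a phosphatase that acts on integrin-linked kinase signalling, was called at -0.74. Capn2, the large subunit of m-calpain, read 5606, 5941 and 5418 in parental cells and 4281, 4765 and 5047 in HML2 cells, a difference of -0.27 ± 0.11 without overlap that was not called. Ralb, a small GTPase of the exocyst pathway, read 2831, 2114 and 2942 in parental cells and 1972, 2584 and 2589 in HML2 cells, a difference of -0.14 ± 0.17 with overlap. The apoptosis initiator Casp8 (-0.28), the LKB1 partner Cab39 (-0.14) and the protein phosphatase 2A subunit Ppp2r5a (-0.20) were not called.

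Further probe sets of the listed genes, which the choice of 1 probe set per gene had left out, leaned the same way. A total of 34 genes had 69 such probe sets above the same minimum signal. Of these 47 were below 0, with a median of -0.22, and 34 were lower than the probe set used. By gene, all probe sets were below 0 for 19 genes and above 0 for 5, and signs were mixed for 10, while 19 genes had only 1 probe set. The further probe sets read the same RNA samples and are no replicates. For other chromosome 1 genes, 78.3% of 401 further probe sets were below 0, and for genes not on chromosome 1 it was 50.1% of 6581.

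Cul3, Lrrfip1 and Smarcal1 had further probe sets that were much lower than the one used. Cul3 was at -0.14 on the probe set used, while its 4 others ranged from -1.25 to -0.70. Lrrfip1 had another probe set at -1.38 and one at -0.02, against -0.14 on the one used. A further probe set of Smarcal1 read 365, 248 and 333 in parental cells and 25.4, 63.6 and 46.2 in HML2 cells, a difference of -1.95 against -0.65 on the one used. Sf3b1, at -0.21 on the one used, had a further probe set at -0.93, and Ubxn4, at -0.27, had one at -0.96. For some other genes the further sets were closer to 0 or of opposite sign. Hnrnpu ranged from -0.60 to 0.22 over 4 further probe sets, Actr3 was at -0.07 and -0.03, and Xpr1 was at -0.89 and -0.53 against -2.12. Creb1, at -0.11 on the one used, ranged from -0.02 to 0.60 over 4 further probe sets, of which 1 was below 0. With the mean of its probe sets Creb1 was at 0.28. Idh1 at -1.35 and Nek7 at -1.15 and -0.56 stayed low.

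**Figure D4:**
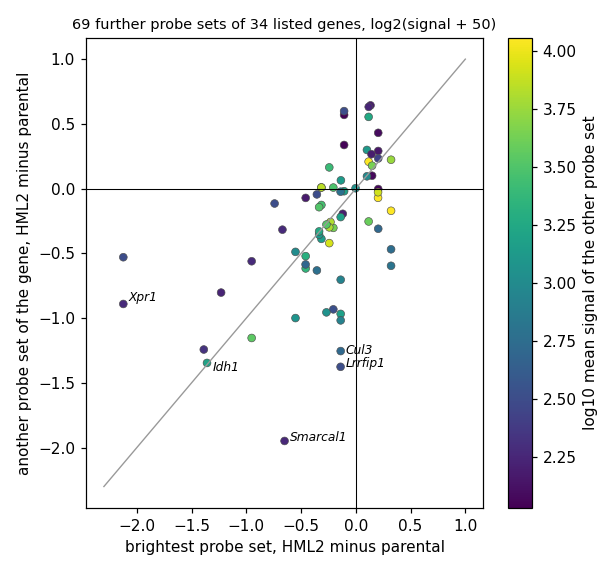
Difference, HML2 minus parental on the log2(signal + 50) scale, of 69 further probe sets of 34 listed genes (vertical) against that of the probe set used for the same gene (horizontal), coloured by the log10 mean signal of the further probe set. The grey line marks equal values. The lowest further probe sets of Cul3, Lrrfip1 and Smarcal1 lie well below it, and the further probe sets of Xpr1 lie above it.

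The median difference also varied with probe set brightness, but not in the same order in every gene set. The listed genes were read by brighter probe sets, with a median signal of 3236 against 946 for other chromosome 1 genes, which says nothing of RNA levels between genes. Split at mean signals of 498 and 1627, which divide all measured genes evenly, 38 listed genes fell in the brightest class with a median difference of -0.22, 11 in the middle class with -0.46 and 4 in the dimmest class with -0.46. Other chromosome 1 genes had medians of -0.28, -0.40 and -0.32 in the same order. Genes not on chromosome 1 had medians of 0.06, -0.01 and -0.06. Within each class the chromosome 1 medians were below those of the other chromosomes.

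Along the chromosome the lower values were not limited to one stretch. The 520 measured genes were put in the order of the RefSeq table and divided into 10 blocks of 52 genes. Every block had a median below 0, from -0.22 in the second block (Kansl3 to Stk17b) to -0.49 in the fourth (Atic to Psmd1). The listed genes lay mostly in the third to the seventh block, which held 15, 11, 5, 7 and 8 of them, and the first 2 blocks held none. In the third block the median of the listed genes was -0.21 and that of the 37 others -0.42, and in the fourth block they were -0.30 and -0.51. Against the median of their 20 nearest measured neighbours outside the list, 21 of the 53 genes were lower. These neighbour medians ran from -0.66 around Atg9a to -0.05 around Hspd1 and Hspe1, and all of them were below 0.

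**Figure D5:**
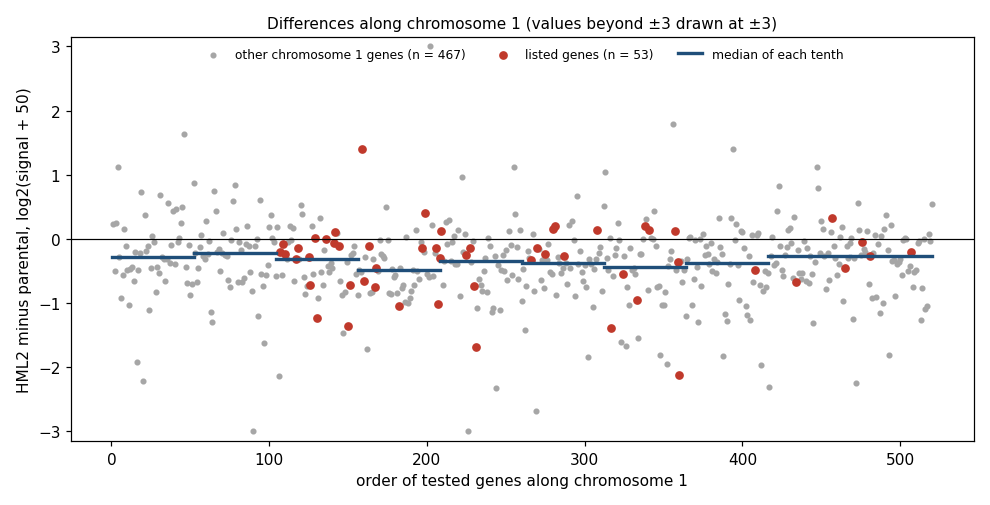
Difference, HML2 minus parental on the log2(signal + 50) scale, of each measured chromosome 1 gene (grey, 467 other genes; red, 53 listed genes) by gene order, with the median of each block of 52 genes as a blue line; values beyond 3 in either direction are drawn at 3. All 10 blue lines lie below 0, between -0.49 and -0.22.

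Some genes of the chromosome stood above the shift. Those named had a mean signal of at least 250 in HML2 cells and groups that did not overlap, and genes outside these limits could be higher than some of them. Of the 467 genes outside the list, 20 were called higher, a number that became 32 with the replicate number as a block in the fit and 8 to 22 when 1 array was left out, with 8 reached without parental replicate 3. Rgs16, a brake on G protein signalling, read 368, 485 and 455 in parental cells and 2013, 1653 and 1298 in HML2 cells, a difference of 1.80 ± 0.19. Sele, the endothelial adhesion molecule E-selectin, read 117, 94.3 and 83.3 in parental cells and 571, 248 and 272 in HML2 cells, a difference of 1.40 ± 0.28. Its parental mean of 98.3 was under 100, and the difference was 1.07 without HML2 replicate 1, its highest array. Ccl20, a chemokine that attracts cells through Ccr6, read 5.31, 10.4 and 3.01 in parental cells and 1765, 259 and 394 in HML2 cells. The parental Ccl20 signals were within the range of bacterial control probe sets (1.97 to 36.2). Ccl20 passed the minimum signal only through its HML2 signals. Its difference of 3.48 was 2.72 without HML2 replicate 1, its highest array. Macir (1.12), the opsin Opn3 (1.12), the reductase Cyb5r1 (1.05), Glrp1 (0.96) and the Rab escort protein Chml (0.79) were next in size within these limits. Cyb5r1 lost its call when any parental array was left out and was 0.61 without HML2 replicate 1, and Glrp1 was not called when HML2 replicate 3, parental replicate 2 or parental replicate 3 was dropped.

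At the other end stood genes outside the list that were lower than any listed one. The fibrillar collagen Col3a1 read 25093, 22244 and 20547 in parental cells and 659, 785 and 363 in HML2 cells, a difference of -5.18 ± 0.24. Col6a3, a chain of collagen VI, read 7018, 5883 and 5352 in parental cells and 141, 177 and 168 in HML2 cells, a difference of -4.85 ± 0.15. The Hedgehog effector Gli2 read 517, 256 and 255 in parental cells and 15.8, 2.5 and 6.89 in HML2 cells, and since its HML2 signals lay in the range of the bacterial controls, its difference of -2.69 depends on the offset of 50. The lipoprotein-binding protein Hdlbp (-2.33), the matrix protein Olfml2b (-2.31) and the epoxide hydrolase Ephx1 (-2.24) were also lower than Xpr1. In all 6 the HML2 arrays were below all parental arrays. Olfml2b was dim in HML2 cells, with a mean of 88.9. Gli2 and Olfml2b passed the minimum signal only through their parental signals.

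Partners coded on other chromosomes had values on both sides of 0. The partner list held 119 genes placed in the same complexes or pathways as listed genes, and direct binding was not checked. Of them 102 were measured and lay on other chromosomes, with a median difference of 0.08, 41 below 0 and 61 above. Of the 102, 17 were called higher (16.7%) and 7 lower (6.86%) in the limma fit, against 12.3% and 14.9% of all genes. With the replicate block 27 were called higher, and over fits without 1 array the counts were 9 to 21 higher and 4 to 12 lower, with 9 and 4 reached without parental replicate 3. Partners were read by bright probe sets, and 70 of them fell in the brightest class. There, 21.4% of partners were called higher and 7.14% lower, with a median of 0.09. Genes of that class not on chromosome 1 had 16.8% called higher and 11.6% lower, with a median of 0.06. The list was drawn up when results of these data were known, and the median difference between partners and listed genes was not tested.

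Of the listed genes at the proteasome, Psmd1 was at -0.30 (-0.15 without HML2 replicate 1) and Uchl5 at 0.14. On other chromosomes 14 of 16 measured partners were above 0 with a median of 0.17, and 4 (25%) were called higher. Of all genes 12.3% were called higher, and 16.8% of the brightest class outside chromosome 1, which had a median of 0.06. Psmc1, an ATPase of the base, read 2315, 2679 and 2512 in parental cells and 3884, 4406 and 4751 in HML2 cells, a difference of 0.78 ± 0.12 (limma adjusted p = 0.00266). Psmd7, a subunit of the lid, had a difference of 0.63 ± 0.16 (limma adjusted p = 0.0187) and was not called in the fits that dropped HML2 replicate 2, parental replicate 1 or parental replicate 3. Psmd11 (0.53) and Psmc6 (0.51) were the others, and Psmc6 was at -0.0057 when all its probe sets were averaged. In the COP9 signalosome, which removes NEDD8 from cullins, the subunits coded on chromosome 1 were all below 0: Cops8 at -0.26, Cops7b at -0.35 and Cops5 at -0.44, of which Cops5 was called (limma adjusted p = 0.0174), though not without parental replicate 2 or 3. The 6 measured subunits coded elsewhere had a median of 0.01, and Cops7a (0.63, limma adjusted p = 0.00824) and Cops6 (0.38, limma adjusted p = 0.0265) were called higher. Cops6 was called in only 2 of the 6 fits that left out 1 array.

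Other complexes and pathways gave different pictures. Over all genes 12.3% were called higher and 14.9% lower. The 4 measured partners of Nop58 were all above 0, with Nop14 (0.75), Nop56 (0.40) and Npm1 (0.26) called higher. Among mitochondrial partners of Hspd1 and Hspe1, the protease subunit Clpp (0.67) and the chaperone Hspa9 (0.50) were called higher and the chaperone Trap1 (-0.39) lower. Beside Copa, 6 of the 7 other coatomer subunits were below 0 with a median of -0.27, and 1 of them was called: Cope read 6509, 6394 and 5939 in parental cells and 4257, 3552 and 3617 in HML2 cells, a difference of -0.72 ± 0.11 (limma adjusted p = 0.00274). BMP receptors were divided, with the type II receptor Acvr2a (-0.98) and the type I receptor Bmpr1a (-0.60) called lower beside Bmpr2, and Acvr2b (0.67) called higher. The Acvr2b call was lost in 5 of the 6 fits without 1 array. Acvr2b was also dim, with 64.4, 57.4 and 84.8 in parental cells and 163, 149 and 108 in HML2 cells. Its parental signals all lay under the minimum asked of the mean over all arrays. It passed that minimum only through its HML2 signals, and it is counted among the partners called higher. Wasf1 (-0.73) of the WAVE complex, the calpain inhibitor Cast (-0.83) and Aph1b (-1.82) of gamma-secretase were also called lower. Brk1 (0.52) of the WAVE complex, Arpc4 (0.66) of Arp2/3, Nup107 (0.55) of the nuclear pore, the translin partner Tsnax (0.53) and Psenen (0.36) of gamma-secretase were called higher. The calls of Nop56, Npm1, Tsnax, Psenen and Trap1 were each lost in 4 or 5 of the fits without 1 array, that of Hspa9 in 3, and those of Cast and Bmpr1a without parental replicate 3.

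Partners that themselves lie on chromosome 1 were all below 0. Besides Cops5 and Cops7b these were Cflar, the inhibitor of caspase 8 (-0.74, limma adjusted p = 0.0118), Klhl12, an adaptor of Cul3 ligases (-0.48, limma adjusted p = 0.0462), and Arpc5 of the Arp2/3 complex (-0.42, or -0.14 without HML2 replicate 1), which was not called. The call of Klhl12 was lost in 5 of the 6 fits without 1 array, and that of Cflar without parental replicate 3. The partners of Xrcc5 lie elsewhere: Xrcc6, the Ku70 subunit, read 1674, 1826 and 1563 in parental cells and 1681, 1208 and 1231 in HML2 cells, a difference of -0.30 ± 0.16 that was not called.

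Markers of several cell types were read on the same arrays. The mammary and luminal epithelium list had 2 of 6 genes above the minimum signal, Krt8 and Epcam, and its summed signal was 1272 to 1393 in parental and 3786 to 5065 in HML2 cells. Krt8 made the rise, with means of 1095 and 4175, while Epcam was lower in HML2 cells on every array, with means of 133 and 83.5. The defining markers Krt18, Krt19, Krt7 and Cdh1 had mean signals under 100 in both groups. For fibroblasts, with 1 of 5 passing (Pdgfra), the sum was 1723 to 2706 in parental and 858 to 1137 in HML2 cells. Leukocyte markers passed in 1 of 6 (Lyz2), with sums of 306 to 366 and 175 to 379 and Ptprc near background. Lung epithelium passed in 1 of 4 (Sftpb), with sums of 113 to 205 and 136 to 247, and endothelium in 0 of 4, with sums of 71.2 to 161 and 109 to 158. The sums of these last 3 lists overlapped between the groups. The part of the epithelial and fibroblast marker values in the values of the listed genes was not tested. Arrays did not differ widely in brightness: between 39.7% and 41.6% of all probe sets had a signal of at least 100, and the trimmed mean was 500 on each.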

How the data were processed

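RNA from 3 parental and 3 HML2 cultures was measured on Affymetrix Mouse Genome 430 2.0 arrays. The values deposited by the authors are linear intensities, 1 signal per probe set, from MAS5 as the submitters' processing notes name it. Its version is not given in the sources used here. The mean after trimming 2% at each end was 500 on every array, so a difference in total RNA is not seen. Depth has no counterpart on arrays, and their number limits the precision.

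Of 45101 probe sets, 34945 had 1 symbol in the 2016 array annotation, and 34741 of these were found in the RefSeq table (GRCm38.p6), used for names and gene order. Signals became log2(signal + 50), with a mean signal of at least 100 and 1 probe set per gene. The comparison used limma 3.58.1 with trend (lmFit and eBayes, R 4.3.3) over 9361 genes with Benjamini-Hochberg adjustment, a call being an adjusted p below 0.05, after a check on simulated data. The offset understates changes of dim genes. The listed genes, role groups, partners and markers were chosen with earlier results of these data known. In each role group the 2 largest decreases, the brightest probe set and the smallest decrease or largest increase were given in full. For other chromosome 1 genes the rule took the 8 largest called increases and 6 largest called decreases without overlap and with a mean of at least 250 in the brighter group, and for partners the largest changes of each complex. Further partners were named after their values were seen. The labels do not say whether the replicate numbers pair the cultures. The correlation of same-numbered deviations from the group means was 0.45, 0.34 and 0.24. Parental replicate 2 with HML2 replicate 3 also gave 0.24, so the third pair is not set apart by it. The comparison used no replicate block, and with the block 1670 genes were called higher and 1831 lower. Fits with the replicate block, other offsets, filters, normalizations, probe set rules, array weights, no trend and without each array were alternatives.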

Additional observations from a re-analysis of the deposited data

How the results depend on the processing

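The listed genes kept a median below 0 under all 16 alternatives. Their count below 0 stayed between 40 and 43 of 53, and was 44 of 56 without a signal filter. Over the fits without 1 array their median ran from -0.27 to -0.18 (-0.18 without HML2 replicate 1), and 12 to 17 were called lower (21 with the block or with the mean of probe sets, 24 with array weights). In the same fits all genes gave 590 to 1577 higher and 795 to 1845 lower, other chromosome 1 genes 8 to 22 higher and 101 to 214 lower, and partners 9 to 21 higher and 4 to 12 lower. Without a signal filter, which adds dim probe sets, other chromosome 1 genes had a median of -0.13 and 11 partners were called higher. With the replicate block 32 other chromosome 1 genes and 27 partners were called higher, and no other count named here moved past 1.5 times. With array weights the calls were 2422 higher and 2631 lower over all genes, 47 higher and 262 lower on the rest of chromosome 1, and 33 higher and 16 lower among partners; the cause was not tested. The partner Eef1a1 at -0.04 turned to 0.0068 with median centring and ran from -0.088 to 0.038 over the fits without 1 array, a range inside its error. The partner Psmc6 at 0.51 turned to -0.0057 with the mean of its probe sets. Of 1710 values of 107 single genes under the alternatives, 1558 kept direction and call, 22 changed direction, 94 lost and 37 gained a call, with Psmc6 counted under both direction and loss. Of the 22, 1 was of a called gene, Psmc6. No setting moved the median of all genes by over 0.1.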
